A study of Mus musculus with 6 samples.

Results

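The Hedgehog pathway genes described here are 9 of the 37224 genes counted, taken by symbol as core genes of the pathway. They are the ligands *Shh*, *Ihh* and *Dhh*, the receptor *Ptch1*, the signal transducer *Smo*, the transcription factors *Gli1*, *Gli2* and *Gli3* and the ligand-binding inhibitor *Hhip*. Their RNA was measured in whole embryonic pancreata of wild-type (wt) C57/Bl6J mice on days 13.5 and 15.5 post coitum (dpc). No treatment was given at either stage, and 3 independent samples were made of each. Each sample pooled the pancreata of up to 3 embryos of 1 genotype. Poly(A) RNA was made into strand-specific libraries that were sequenced from a single end. Of the 9 genes, 7 had enough counts to be tested and *Shh* and *Ihh* did not.

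Hedgehog ligands are secreted, lipid-modified proteins. Without ligand, Ptch1 keeps Smo inactive, and Gli3 and in part Gli2 are processed into repressors at the primary cilium. Ligand binding to Ptch1 releases Smo, which shifts Gli proteins towards activators. *Gli1*, *Ptch1* and *Hhip* are themselves common targets of the pathway, so that their RNA is widely used as its readout. In the early gut tube, *Shh* is kept out of the pancreatic bud while it is expressed in the neighbouring stomach and duodenum.

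The deposited counts summed to between 10546028 and 16389237 per sample. They were scaled with the TMM method of edgeR and are given as normalised counts. Stages were compared with edgeR's quasi-likelihood test over the 15578 genes with enough counts by its default filter, with Benjamini-Hochberg adjustment over all of them. The 15.5 dpc samples did not lie close together. Across the genes tested, the log2 difference between replicates 1 and 2 of that stage ran with the exon length of the gene (Spearman rho = -0.59), so that long transcripts were lower in replicate 1. Replicate 3 of that stage also had a negative trend with length relative to the mean of the samples (rho = -0.32, beside -0.52 in replicate 1), and the stage difference itself ran with length, with a median log2 fold change of 0.39 in the shortest decile of genes and -0.27 in the longest. The stage fit was therefore repeated with the length trend of each library removed, and without each sample in turn. The data are from bulk tissue, so fewer cells of a type and less RNA per cell cannot be told apart.

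RNA of the ligands was scarce at both stages. *Shh* (chr5:28456815-28467101, minus strand of mm10) had 1 read in 13.5 dpc replicate 2, 1 read in 15.5 dpc replicate 3 and none in the other 4 samples. *Ihh* (chr1:74945319-74951651, minus strand) had 0, 2 and 1 reads at 13.5 dpc and 2 reads in each 15.5 dpc sample. No sample reached 3 reads of either gene, and a count of 3 corresponds to between 0.183 and 0.284 CPM (counts scaled to library size) in these libraries. At this depth a stage difference of either ligand was not detectable, and no fold is given.

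*Dhh* (chr15:98893031-98898540, minus strand), the ligand best known from Schwann cells, endothelium and testis, was the ligand with the most reads. It had 25.5, 9.43 and 20.1 normalised counts at 13.5 dpc and 23.5, 31.7 and 35.3 at 15.5 dpc. Replicates 2 and 3 of the later stage lay above all 13.5 dpc samples, while replicate 1 lay within their range. The log2 fold change of 15.5 over 13.5 dpc was 0.72 (standard error 0.36, edgeR adjusted p = 0.174). In the *Dhh* transcripts of the annotation GENCODE M21, 10.3% of the 50-base windows also occur in transcripts of *Rhebl1*. That *Dhh* model has 4399 exon bases, whereas the counted model has 2363, with 0 of them overlapped by exons of other genes. Whether the shared windows lie in the counted model, and affect its reads, was not tested. Of 6 Schwann cell and neural crest glia markers, all tested, 0 rose and 1 fell, *Sox10* (log2 fold change -0.43, edgeR adjusted p = 0.0406). Their summed level was 1532 to 1821 normalised counts at 13.5 dpc and 1189 to 1848 at 15.5 dpc, and none of the 7 endothelial markers tested was called by edgeR at adjusted p of 0.05. The part of these cells in the *Dhh* values was not tested.

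**Figure D1:**
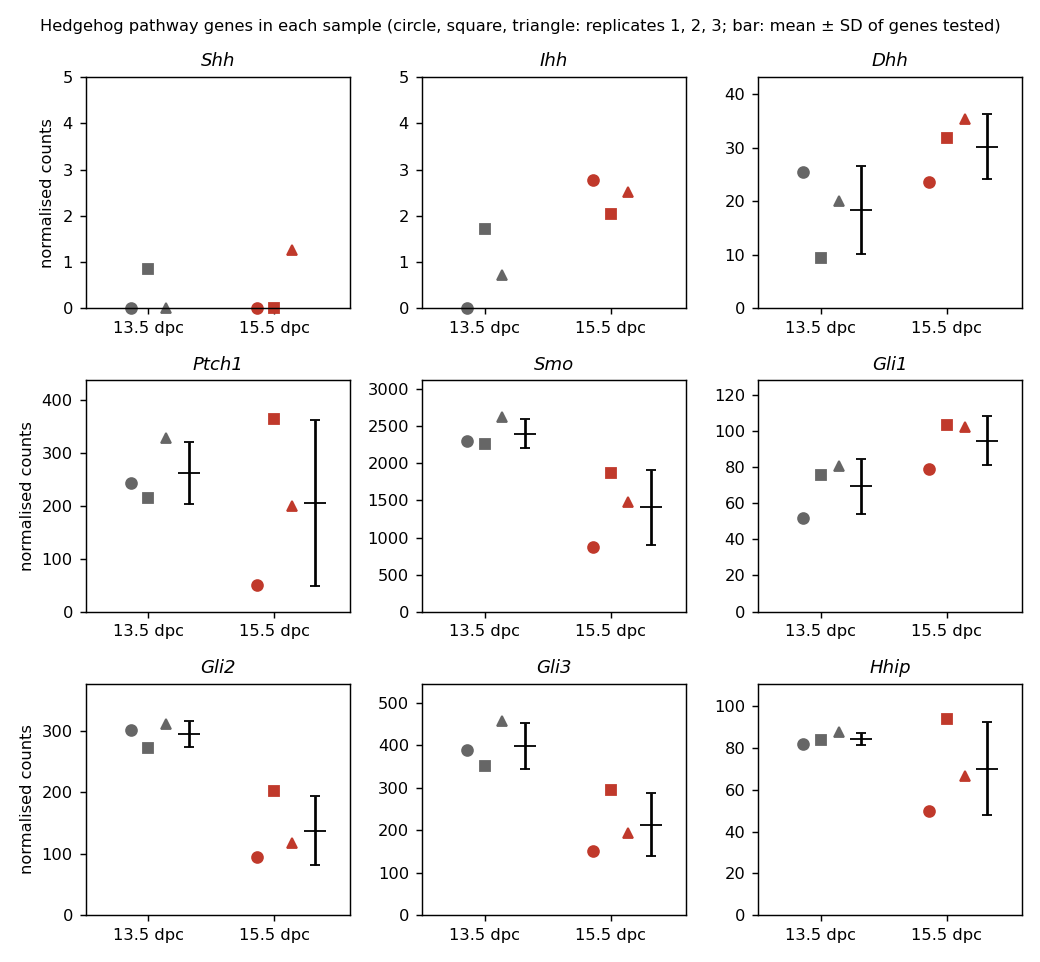
Normalised counts (vertical axis, linear, starting at 0) of each of the 9 genes in the 13.5 dpc (grey) and 15.5 dpc (red) samples. Circles, squares and triangles are replicates 1, 2 and 3, and bars give mean ± SD of the 7 genes tested. *Smo*, *Gli2* and *Gli3* were lower in each 15.5 dpc sample than in any 13.5 dpc sample, and *Ptch1* spread from 49.8 to 364 within 15.5 dpc.

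The receptor gene *Ptch1* (chr13:63511533-63565520, minus strand) had 243, 215 and 328 normalised counts at 13.5 dpc. At 15.5 dpc it had 49.8, 364 and 200. Replicate 1 of the later stage was thus the lowest and replicate 2 the highest of all 6 samples. The log2 fold change was -0.34 (standard error 0.55, edgeR adjusted p = 0.669), and the difference was within the spread between replicates. Without 15.5 dpc replicate 1 it was 0.11 (edgeR adjusted p = 0.763), with the opposite sign, and without 15.5 dpc replicate 2 it was -1.04 (edgeR adjusted p = 0.0723). The sign of the *Ptch1* difference therefore rested on replicate 1.

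*Smo* (chr6:29735694-29761365, plus strand), the seven-pass membrane protein that Ptch1 holds inactive, was the most abundant of the 9. At 13.5 dpc it had 2304, 2269 and 2625 normalised counts, and 870, 1865 and 1483 in the 15.5 dpc samples. All later samples lay below all earlier ones. The log2 fold change was -0.77 (standard error 0.25), a 1.70-fold lower level, with an edgeR adjusted p of 0.0638 that missed the threshold of 0.05. With the length trend removed the log2 fold change was -0.73 (edgeR adjusted p = 0.038), and DESeq2 gave -0.76 (adjusted p = 0.0202). Without 15.5 dpc replicate 1 it was -0.52 (edgeR adjusted p = 0.0104) and without replicate 2 it was -1.01 (edgeR adjusted p = 0.00436). Without any 13.5 dpc sample or 15.5 dpc replicate 3 it was -0.70 to -0.81 and did not pass (edgeR adjusted p = 0.144 to 0.191). The direction was thus shared but the call depended on the setting.

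*Hhip* (chr8:79966115-80058006, minus strand), a membrane protein that binds and sequesters the ligands, had 82.0, 84.0 and 87.6 normalised counts at 13.5 dpc. At 15.5 dpc it had 49.8, 94.1 and 66.7. The earlier samples lay close together, and the later ones spread to either side of them. The log2 fold change was -0.25 (standard error 0.23, edgeR adjusted p = 0.43). Only without 15.5 dpc replicate 2, among the samples left out, did it pass the threshold (log2 fold change -0.52, edgeR adjusted p = 0.0468).

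Among the transcription factors, *Gli2* and *Gli3* fell between 13.5 and 15.5 dpc, and *Gli1* did not pass the test. *Gli2* (chr1:118834132-119053619, minus strand) encodes the main Gli activator in many tissues. It had 303, 272 and 312 normalised counts at 13.5 dpc and 94.1, 201 and 117 at 15.5 dpc. The groups did not overlap, and the level was 2.12-fold lower at 15.5 dpc (log2 fold change -1.09, standard error 0.26, edgeR adjusted p = 0.0241).

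*Gli3* (chr13:15463235-15730026, plus strand) encodes the main Gli repressor. It had 388, 352 and 458 normalised counts at 13.5 dpc and 151, 296 and 193 at 15.5 dpc. Again no later sample reached an earlier one, and the level was 1.86-fold lower (log2 fold change -0.90, standard error 0.24, edgeR adjusted p = 0.0356). The length deciles of *Gli2* and *Gli3* had median log2 fold changes of -0.19 and -0.27. With the length trend removed the differences of *Gli2* and *Gli3* were smaller, with log2 fold changes of -0.92 and -0.65, and their edgeR adjusted p-values were 0.00504 and 0.00523. Without 15.5 dpc replicate 1 the log2 fold changes were -0.87 and -0.70 (edgeR adjusted p = 0.0101 and 0.0201). Both calls were lost when any 13.5 dpc sample or 15.5 dpc replicate 3 was left out, with edgeR adjusted p-values of 0.0714 to 0.101 for *Gli2* and 0.0805 to 0.133 for *Gli3*, although both remained lower in each of these fits.

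*Gli1* (chr10:127329889-127341589, minus strand), an activator that is a target of the pathway itself, had 51.9, 75.4 and 80.5 normalised counts at 13.5 dpc. At 15.5 dpc it had 78.9, 103 and 102. Replicates 2 and 3 of the later stage lay above all earlier samples, and replicate 1 lay just below the highest of them. The log2 fold change was 0.45 (standard error 0.21, edgeR adjusted p = 0.152). With the length trend removed the groups no longer overlapped, with 51.4, 74.3 and 79.5 normalised counts against 81.0, 104 and 103, and the log2 fold change was 0.48 (edgeR adjusted p = 0.0898). Scaled to epithelial markers, in place of all genes, it was 0.08 (edgeR adjusted p = 0.79). In the counted annotation, 55 exon bases of *Gli1* overlap exons of *Arhgap9* on the opposite strand. The libraries kept the strand, but the methods do not state whether counting used it.

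*Gli2* and *Gli3* were lower together, and the 250 bases upstream of their RefSeq starts (build GRCm38.p6) are shown because these are the members whose RNA passed the test. Capitals mark the GC box GGGCGG, searched on both strands. The *Gli2* window is chr1:119053620-119053869 on the minus strand and the *Gli3* window is chr13:15463473-15463722 on the plus strand, each printed 5′ to 3′ on the strand of its gene. The *Gli3* window lies inside the span of the deposited gene model, which starts further upstream.
Gli2: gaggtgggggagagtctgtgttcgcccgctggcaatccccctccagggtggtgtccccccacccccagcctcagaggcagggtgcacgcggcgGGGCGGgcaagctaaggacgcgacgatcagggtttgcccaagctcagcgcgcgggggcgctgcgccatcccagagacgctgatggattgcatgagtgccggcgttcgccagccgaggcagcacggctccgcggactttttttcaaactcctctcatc
Gli3: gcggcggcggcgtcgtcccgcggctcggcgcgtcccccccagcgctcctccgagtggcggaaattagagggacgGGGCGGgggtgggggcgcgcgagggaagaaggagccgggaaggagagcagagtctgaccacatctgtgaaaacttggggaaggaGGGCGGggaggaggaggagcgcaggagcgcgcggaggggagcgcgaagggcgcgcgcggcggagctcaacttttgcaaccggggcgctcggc
The *Gli2* window holds 1 GC box and the *Gli3* window 2, and 32.7% of the 32851 mouse promoters in the same table hold at least 1 in the same window. RefSeq windows were matched for 7 of the 9 genes, all but *Shh* and *Gli1*, which were not searched. None of the 7 held the Gli binding motif GACCACCCA on either strand, which 0.225% of all promoters hold, or its shorter core CCACCCA, which overlaps it and is found in 8.11%. These matches describe only the letters in these windows.

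Read against all genes, 2 of the 7 genes tested were called lower, *Gli2* and *Gli3*, where 10.7% of the 15578 genes were. None of the 7 was called higher by edgeR, where 11.6% of all genes were, and at an unadjusted p under 0.05 none was higher either. In 3 of the 7, *Smo*, *Gli2* and *Gli3*, all 15.5 dpc samples lay below all 13.5 dpc samples, against 23.6% of all genes tested. The median log2 fold change of the 7 was -0.34, beside -0.01 over all genes. With the length trend removed 3 of the 7 were called lower and 0 higher by edgeR, where 15.0% and 18.0% of all genes were. By the thresholds of the study's methods, which ask for an adjusted p at or below 0.1, a stage mean over 100 and a fold below 0.6 or above 1.6, the same 3 genes were lower, where 3.90% of the 14011 protein-coding genes were.

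**Figure D2:**
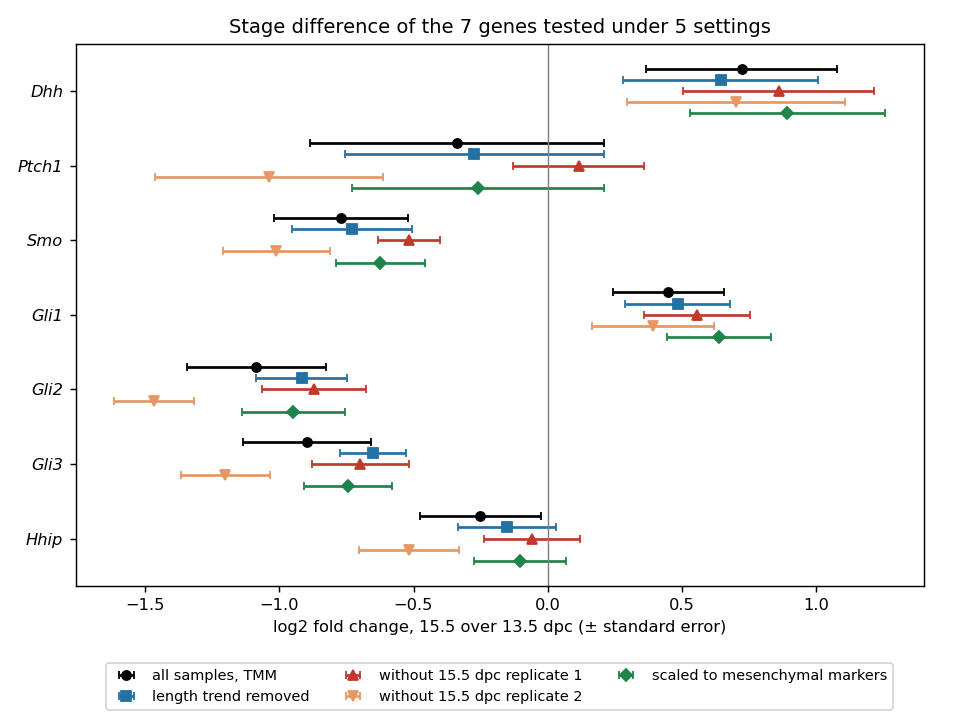
Log2 fold change of 15.5 over 13.5 dpc (horizontal axis, with standard error) of the 7 genes tested, in 5 fits marked by colour and symbol. *Gli2*, *Gli3* and *Smo* lay below 0 and *Gli1* and *Dhh* above 0 in all 5, whereas *Ptch1* moved from -1.04 without 15.5 dpc replicate 2 to 0.11 without replicate 1.

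Between 15.5 dpc replicates 1 and 2, some of the 9 genes differed by more than genes of similar length did. The log2 difference of *Ptch1*, replicate 1 minus replicate 2, was -2.82, while the median gene of the same decile of exon length differed by -0.18. That decile rests on the 4305 exon bases of the counted *Ptch1* model, whereas the GENCODE M21 model has 14185, and genes of the longest decile differed by -0.68. Only 24 of the 15578 genes, *Ptch1* included, had a difference as low, or 0.154% of them. *Smo* differed by -1.10 where genes of its length differed by -0.08, *Gli2* by -1.08 against -0.43, and *Gli3* by -0.96 against -0.68. All 7 genes were lower in replicate 1 than in replicate 2, with *Gli1* the least, at -0.38. The length trend removed for each library left *Ptch1* at 53.7 against 358 normalised counts in these samples. In the GENCODE M21 transcripts of *Ptch1*, 0.221% of 50-base windows occur in transcripts of other genes. These samples also differed in cell markers, with sums of 951400 and 409000 normalised counts for the 7 acinar markers in replicates 1 and 2. Of these, the short gene *Ctrb1* (887 exon bases) had 708800 and 275540. The 7 endocrine markers summed to 43600 and 25490, but *Pax6* (382 and 494) and *Isl1* (574 and 636) were lower in replicate 1. The mesenchymal markers were also lower there, with sums of 95320 and 142000. The part of these cells in the *Ptch1* values was not tested.

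**Figure D3:**
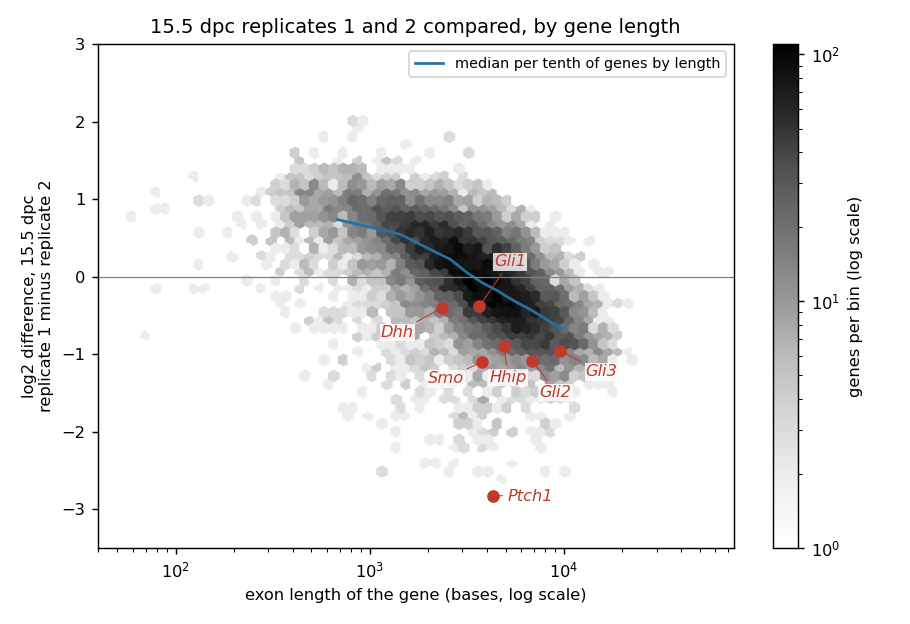
Log2 difference between 15.5 dpc replicates 1 and 2 (vertical axis) against exon length in bases (horizontal axis, log scale) for the 15578 genes tested, shaded by the number of genes per bin, with the 7 Hedgehog pathway genes in red. The blue line joins the medians of deciles of the genes by length. *Ptch1*, at -2.82, lies far below the line, whereas *Gli1* at -0.38 and *Gli3* at -0.96 lie nearer to it.

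Levels of different genes were compared as normalised counts per kilobase of exon. At 13.5 dpc, *Smo* had 635 ± 52.0 (SD, n = 3) and *Ptch1* 60.9 ± 13.7. *Gli2* and *Gli3* followed at 43.0 ± 3.05 and 41.6 ± 5.66, in samples that overlapped. *Gli1* had 18.9 ± 4.15 and *Hhip* 17.3 ± 0.582, again with overlapping samples, and *Dhh* 7.77 ± 3.46. *Ihh* and *Shh* came last, and these overlapped as well. The other neighbours in this order did not overlap.

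At 15.5 dpc, *Smo* was still first at 372 ± 133 per kilobase, before *Ptch1* at 47.6 ± 36.5. *Gli1* was now the third of the 9 at 25.8 ± 3.75, before *Gli3* at 22.2 ± 7.77 and *Gli2* at 20.03 ± 8.23. *Hhip* had 14.3 ± 4.56 and *Dhh* 12.8 ± 2.55. From *Ptch1* down to *Dhh*, neighbours in the order overlapped, so this order is not fixed by the samples. *Smo* stood above *Ptch1*, and *Dhh* above *Ihh*, in each sample. Among all genes tested, the mean level of *Smo* lay at percentile 92.0 at 13.5 dpc and 82.5 at 15.5 dpc, while the other members tested lay between percentiles 8.45 and 39.3.

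Ratios between the Gli genes within a sample do not depend on library scaling. Per kilobase, the ratio of *Gli1* to *Gli2* was 0.322, 0.52 and 0.484 at 13.5 dpc and 1.57, 0.961 and 1.63 at 15.5 dpc. The ratio of *Gli1* to *Gli3* was 0.35, 0.562 and 0.459 at 13.5 dpc and 1.37, 0.914 and 1.39 at 15.5 dpc. In both ratios each 15.5 dpc sample was above each 13.5 dpc sample. With the length trend removed, *Gli1* over *Gli2* was 0.334 to 0.541 at 13.5 dpc and 1.04 to 1.53 at 15.5 dpc, and *Gli1* over *Gli3* was 0.371 to 0.594 and 1.03 to 1.25. The ratios are given as a description and were not tested. An exact two-sided permutation test of 3 against 3 samples cannot go below p = 0.1. The ratio of *Gli3* to *Gli2* had a mean of 0.966 at 13.5 dpc and 1.13 at 15.5 dpc, with samples that overlapped. Without the length trend it was 0.9 to 1 at 13.5 dpc and 1.01 to 1.25 at 15.5 dpc, and the stages no longer overlapped. *Gli1* over *Ptch1* overlapped too, with 1.86, 0.333 and 0.598 at 15.5 dpc against 0.251 to 0.412 at 13.5 dpc.

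**Figure D4:**
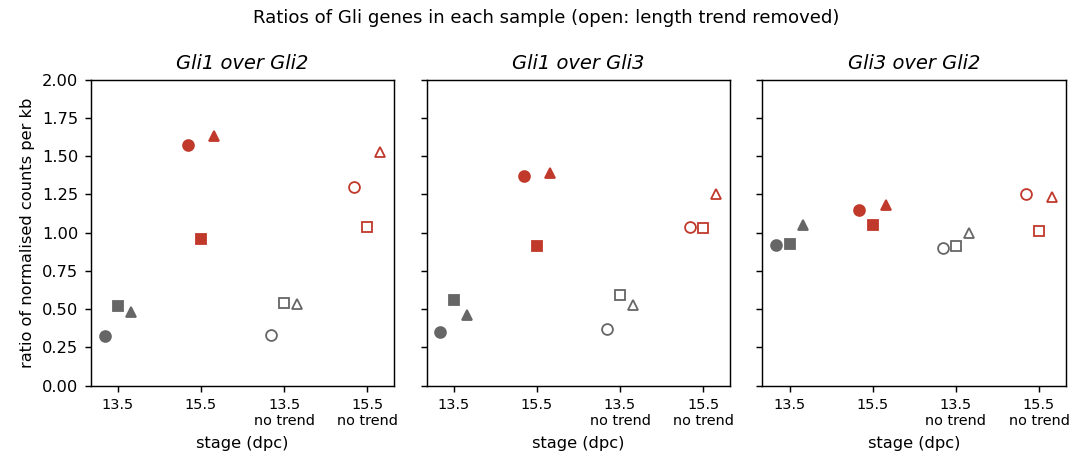
Ratios of normalised counts per kilobase (vertical axis, linear, starting at 0) of *Gli1* to *Gli2*, *Gli1* to *Gli3* and *Gli3* to *Gli2* in each sample, with symbols for replicates 1, 2 and 3, grey for 13.5 dpc and red for 15.5 dpc. Open symbols are values with the length trend removed. Both *Gli1* ratios were below 0.6 in all 13.5 dpc samples and above 0.9 in all 15.5 dpc samples.

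Across the 6 samples, log2 CPM of *Gli2* and *Gli3* had a Pearson correlation of 0.99, *Smo* and *Gli3* of 0.97 and *Ptch1* and *Hhip* of 0.96. *Gli1* and *Gli2* had a correlation of -0.49. These values describe 6 samples that share stage and length trend. The genes most like *Ptch1* in the same 6 samples were *Gm10651*, *Zfp36l2* and *Prkar2a*, with correlations of 0.9988, 0.9986 and 0.9985, and 655 genes were above 0.95. Those most like *Gli1* were *P2ry1*, *Myom3* and *Aire*, with 0.9955, 0.9826 and 0.9802, and 23 genes were above 0.95.

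In the embryonic pancreas, *Gli* genes and *Smo* are expressed in mesenchyme as well as epithelium, and the markers of both compartments were followed. Of 10 mesenchymal markers tested, 2 rose, the proteoglycan genes *Dcn* and *Lum*, and 2 fell, the growth factor receptor gene *Pdgfra* and the transcription factor gene *Twist1*. *Pdgfra* had 1765, 1682 and 1748 normalised counts at 13.5 dpc and 490, 933 and 637 at 15.5 dpc (log2 fold change -1.33, edgeR adjusted p = 0.00605), a fall in the same samples as *Gli2* and *Gli3*. The 10 markers summed to between 129100 and 146000 at 13.5 dpc and between 95320 and 142000 at 15.5 dpc, with none at 0. Of 10 epithelial markers 4 rose and 2 fell, and their sums ranged from 28820 to 30420 and from 35860 to 43360. Of the acinar markers 7 of 7 rose, with sums of 73520 to 87470 at 13.5 dpc and 409000 to 951400 at 15.5 dpc. Of 4 erythroid markers 1 rose and 2 fell, with sums of 9763 to 12120 and 945 to 1330. Smooth muscle had 3 of 6 markers higher and 0 lower by edgeR, among them *Acta2* (log2 fold change 0.96, edgeR adjusted p = 0.0022), with sums of 2150 to 2250 and 2345 to 3223. Of 5 mesothelial markers tested 1 rose, *Msln* (log2 fold change 2.00, edgeR adjusted p = 0.00809), and 1 fell, *Wt1* (log2 fold change -0.75, edgeR adjusted p = 0.00389), with sums of 2143 to 2180 and 1623 to 1898. Of 4 neuronal markers 3 fell, with a median log2 fold change of -1.24 and sums of 662 to 735 and 461 to 482. The part of these shifts in the values of the Hedgehog genes was not tested.

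The sum of the mesenchymal markers was mostly collagen RNA, with means of 46500 for *Col3a1*, 35770 for *Col1a1* and 27610 for *Col1a2* at 13.5 dpc. Per 10000 counts of these markers, *Gli2* had 20.4 to 23.4 at 13.5 dpc and 9.48 to 14.2 at 15.5 dpc, and *Gli3* had 26.4 to 31.4 and 15.6 to 20.8. *Smo* had 170.5 to 179.8 and 91.3 to 131. On the same scale *Gli1* had 4.02 to 5.67 and 7.28 to 8.28. *Dhh* had 0.709 to 1.98 and 2.23 to 2.86. The stages did not overlap for these 5 genes, with *Gli1* and *Dhh* higher and the others lower at 15.5 dpc, while *Ptch1* and *Hhip* overlapped. Per 10000 counts of the epithelial markers *Smo*, *Gli2*, *Gli3* and *Hhip* were lower without overlap, and *Gli1*, *Dhh* and *Ptch1* overlapped. Scaling the libraries to the epithelial markers put the median gene of all tested at -0.39. EdgeR then called 38.1% of all genes lower and 5.39% higher. The share of all genes without overlap was not taken on either marker scale. With the libraries scaled to the mesenchymal markers, the median gene of all tested was at a log2 fold change of 0.19. In that fit edgeR called 3.66% of all genes lower and 6.01% higher. *Gli2* was at -0.95 (edgeR adjusted p = 0.0278), *Gli3* at -0.74 (0.0359), *Smo* at -0.62 (0.06) and *Gli1* at 0.64 (0.0839).

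Tissues next to the pancreas were looked for by their markers, since the gut expresses *Shh* and *Ihh*. The intestinal genes *Cdx1*, *Cdx2* and *Fabp2* had at most 5.04 normalised counts in any sample, and *Cdh17*, a cadherin gene of gut epithelium, had 21.9, 8.57 and 20.1 at 13.5 dpc and 6.92, 6.14 and 6.30 at 15.5 dpc. The stomach genes *Gkn1* and *Gkn2* had 0.857 to 2.15 and 3.43 to 9.11 normalised counts at 13.5 dpc and 0 in all 15.5 dpc samples. *Sox2* had 7.18 to 12.9 and 4.09 to 6.92. *Cdh17*, *Sox2*, *Gkn1* and *Gkn2* were thus low at both stages and lower at 15.5 dpc without overlap, though too low to be tested. Of 5 intestinal and 4 stomach markers only 1 each could be tested. *Vil1* rose (log2 fold change 1.20, edgeR adjusted p = 0.00162) and the stomach mesenchyme gene *Barx1* fell (-0.72, edgeR adjusted p = 0.0313). The spleen mesenchyme gene *Tlx1* fell too (-1.22, edgeR adjusted p = 0.00573), with 344, 243 and 256 normalised counts at 13.5 dpc and 137, 129 and 95.7 at 15.5 dpc. The other spleen mesenchyme marker, *Nkx2-5*, overlapped between stages and did not pass the test (log2 fold change -0.65, edgeR adjusted p = 0.311). *Tlx1* thus moved in the direction of *Gli2* and *Gli3*, and the part of these neighbouring tissues in their values was not tested.

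Around the 9 genes, 60 further genes of the pathway were listed by role, of which 59 were in the table and 57 were tested. Of these, 22 fell, 1 rose and 34 did not pass the test, beside the 10.7% of all genes called lower and 11.6% called higher. Their median log2 fold change was -0.40, and in 36 of them all later samples lay below all earlier ones, as in 23.6% of all genes. With the length trend removed 22 were called lower and 3 higher, with a median of -0.26, where 15.0% and 18.0% of all genes were called. With libraries scaled to mesenchymal markers 7 were lower and 0 higher by edgeR, where 3.66% and 6.01% of all genes were. The count of 22 was 6 or 7 without any 13.5 dpc sample or without 15.5 dpc replicate 3, and was 42 without 15.5 dpc replicate 2, where 3.29% to 3.84% and 23.3% of all genes were called lower. With the replicate number as a block it was 14, where 8.02% of all genes were. The counts by role below rest on the fit of all 6 samples.

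Of 7 genes of ligand release tested, 3 fell and 0 rose. *Scube1* had 466, 412 and 472 normalised counts at 13.5 dpc and 92.7, 163 and 126 at 15.5 dpc, with no overlap (log2 fold change -1.81, edgeR adjusted p = 0.00138). *Scube3* fell by 1.72 on the log2 scale (edgeR adjusted p = 0.003). Scube proteins are secreted and help to free the lipid-modified ligand from the cell that makes it. The third gene of the family, *Scube2*, was low, at 12.9 to 15.8 and 2.52 to 12.3 normalised counts, and did not pass the test (edgeR adjusted p = 0.127). The glypican gene *Gpc6* fell by 1.11 (edgeR adjusted p = 0.00688). *Hhat*, which attaches palmitate to the ligands, and *Disp1*, which exports them, had log2 fold changes of -0.39 and -0.59 (edgeR adjusted p = 0.265 and 0.103).

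Co-receptors bind ligand together with Ptch1. Of 6 tested, 2 fell and 0 rose. *Boc* had 574, 607 and 655 normalised counts at 13.5 dpc and 284, 438 and 348 at 15.5 dpc, again with no overlap (log2 fold change -0.78, edgeR adjusted p = 0.0153). *Gas1*, another co-receptor, fell by 0.35 (edgeR adjusted p = 0.0338). *Cdon*, the paralogue of *Boc*, had a log2 fold change of -0.47 (edgeR adjusted p = 0.118).

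Of 12 genes that handle Smo at the cilium, 4 fell and 0 rose. *Gpr161*, a ciliary receptor that restrains the pathway through cAMP, had 135, 119 and 163 normalised counts at 13.5 dpc and 24.9, 71.6 and 57.9 at 15.5 dpc (log2 fold change -1.41, edgeR adjusted p = 0.0209). *Evc* and *Evc2*, partners of Smo at the base of the cilium, fell by 0.55 and 0.47 (edgeR adjusted p = 0.0251 and 0.0168). This group thus held both genes that restrain and genes that pass on the signal. Of 8 genes of transport within the cilium, 1 fell, the kinesin gene *Kif3a* (-0.39, edgeR adjusted p = 0.0248), and 0 rose.

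Of 12 genes of Gli processing, 4 fell and 0 rose. *Sufu*, which binds Gli proteins and holds them in the cytoplasm, had 806, 790.5 and 806 normalised counts at 13.5 dpc and 472, 635 and 547 at 15.5 dpc (log2 fold change -0.54, edgeR adjusted p = 0.0206). *Kif7*, a kinesin-like protein that organises the tip of the cilium, and *Stk36*, a kinase, each fell by 0.67 (edgeR adjusted p = 0.0118 and 0.0238). *Btrc*, the ubiquitin ligase subunit that takes part in processing of Gli3, fell by 0.39 (edgeR adjusted p = 0.0186).

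Genes that respond to Hedgehog signalling in some tissues were the last group, and *Ptch1*, *Gli1* and *Hhip* were not counted in it. Of 12 tested, 8 fell and 1 rose. *Wnt5a*, which encodes a secreted Wnt ligand, had 839, 763 and 811 normalised counts at 13.5 dpc and 176, 308 and 214 at 15.5 dpc (log2 fold change -1.78, edgeR adjusted p = 0.0015). *Mycn*, a growth-promoting transcription factor gene, fell by 1.20 (edgeR adjusted p = 0.000716), and *Foxf1*, a transcription factor gene of gut mesenchyme, fell from between 34.6 and 38.1 to between 13.8 and 24.5 normalised counts (log2 fold change -0.98, edgeR adjusted p = 0.0278). *Bmp4* fell by 0.67 (edgeR adjusted p = 0.0249). *Igfbp6*, which encodes a binding protein of insulin-like growth factors, was the gene that rose, from 67.4, 63.4 and 57.5 to 172, 83.9 and 147 normalised counts (log2 fold change 1.09, edgeR adjusted p = 0.0262). *Foxf2* was too low to test, with at most 5.14 normalised counts. Many of these genes also answer to other signals.

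**Figure D5:**
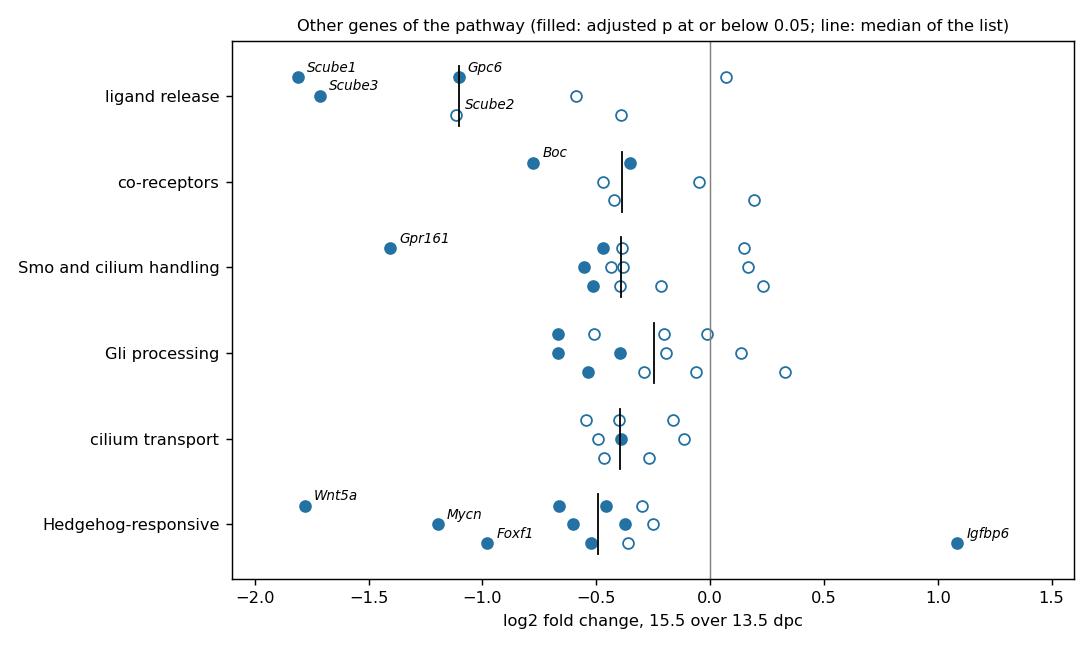
Log2 fold change of 15.5 over 13.5 dpc (horizontal axis) of the 57 further pathway genes tested, in rows by role, with points staggered for legibility. Filled points passed edgeR's adjusted p of 0.05, lines are the median of each role, and names mark genes beyond 0.75 in either direction. All 6 medians lie below 0, from -1.11 for ligand release to -0.25 for Gli processing, and *Igfbp6* at 1.09 is the filled point above 0.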

How the data were processed

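RNA of wt pancreata was measured at 13.5 and 15.5 dpc in 3 independent samples per stage. The authors mapped single-end reads to mm10 (GSNAP), assigned those with a unique alignment to Ensembl genes (featureCounts 1.4.6), and deposited raw counts that were not normalised, beside the exon length of every gene. The methods do not state whether counting used the strand. Of 37224 identifiers, 35449 matched an mm10 annotation (GENCODE).

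Counts were filtered with filterByExpr, scaled with TMM and compared between stages with the quasi-likelihood test of edgeR 4.0.16 (R 4.3.3), without covariates. The standard error of a fold change was taken as its log2 value over the square root of F. The length trend of each library was a lowess curve (span 0.5) of its log2 values, relative to the mean of the samples, on exon length, and was used as an offset. Correlations used log2 CPM with a prior count of 2. Alternatives were other normalisations, scaling to marker genes, DESeq2 1.42.0, other filters, genes above 1% of the counts taken out, the thresholds of the study, the replicate number as a block and each sample left out. The steps were tested on simulated data.

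The 9 genes, the role lists, the markers and the tests were chosen with earlier results of these data known. Named were all 9 genes, *Boc*, *Cdon*, *Gas1*, *Sufu*, *Kif7*, *Hhat*, *Disp1*, *Scube2*, *Foxf1* and *Foxf2*, and in each role up to 4 further genes with the largest change at edgeR's adjusted p of 0.05. Values of some listed genes are left out of the text. Total counts limit low genes, and 3 reads were taken as the floor of a sample. Sequence shared between genes was searched in GENCODE M21 transcripts and overlaps of exons in the counted annotation. Upstream sequences are from RefSeq. All 6 columns of sample values were used. Figures were drawn with Python 3.11.15 and matplotlib 3.10.9.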

Additional observations from a re-analysis of the deposited data

How the results depend on the processing

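Over 17 other settings for the 7 genes tested, 101 of 119 values kept their direction and side of the threshold, 8 lost a call, 9 gained one and 1 changed sign. The last is *Ptch1*, whose log2 fold change ranged from -1.04 to 0.11 with each sample left out, positive only without 15.5 dpc replicate 1, and was 0.15 with that sample left out and the length trend removed together, a setting chosen after seeing the data. In that added setting *Gli1* was called higher (0.58, edgeR adjusted p = 0.0316), so that 1 of the 7 was, where 19.2% of all genes were. With each sample left out, 0 to 4 of the 7 were called lower, against 2 with all samples. It was 0 without any of the 13.5 dpc samples or 15.5 dpc replicate 3, and 4 (*Smo*, *Gli2*, *Gli3* and *Hhip*) without 15.5 dpc replicate 2. *Smo* was also called lower with library size only (-0.96, edgeR adjusted p = 0.0492), without a filter (0.0428) and scaled to epithelial markers (0.0211). Of the further pathway genes, 22 were lower in all samples, but 7 scaled to mesenchymal markers (3.66% of all genes), 43 scaled to epithelial markers (38.1%), 7 by the thresholds of the study (3.90% of protein-coding genes) and 6 to 42 with each sample left out (3.29% to 23.3%), the highest without 15.5 dpc replicate 2. Against 1 higher with all samples (11.6% of all genes), there were 3 with the length trend removed (18.0%) and 2 in the added setting (19.2%). The count higher was 0 scaled to mesenchymal markers (6.01%) and 0 to 3 with each sample left out (4.54% to 24.7%). The causes were not tested. Library size only put the median gene of all tested at a log2 fold change of -0.22, and scaling to epithelial markers at -0.39, and the signs of the 7 genes were the same under each scaling.

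With the replicate number as a block, *Gli2* was at -1.15 (edgeR adjusted p = 0.0265), *Gli3* at -0.94 (0.0381) and *Smo* at -0.83 (0.0401), and 14 of the further genes were lower. Deviations of samples with the same number correlated at 0.22, -0.218 and 0.0378, so the numbers were not taken to pair the samples. With 3 samples per stage and the *Ptch1* spread at 15.5 dpc, only large differences of that gene could pass, and the depth limits *Shh* and *Ihh*, whose changes were not detectable.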
